A study of Mus musculus with 6 samples.

Results

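The data examined here were the RNA levels of 10 genes that are strongly expressed by the fibroblasts of the meninges, read in bulk tissue of the prefrontal cortex (PFC). The genes were chosen by symbol: the membrane transporters Slc6a13, Slc22a6, Slc13a3 and Slc47a1, the retinoic acid enzyme Aldh1a2, the secreted proteins Mgp, Igfbp2 and Ptgds, and the matrix glycoproteins Fn1 and Postn. They are 10 of the 54429 genes counted, and all 10 were among the 20409 genes that passed the filter on low counts. RNA sequencing was performed in 6 libraries, 2 for each of 3 groups of 6-month-old mice. WT mice were C57BL/6 x C3H animals given vehicle, Tau mice were PS19(P301S) animals given vehicle, and UNC0642-treated Tau mice were PS19(P301S) animals given UNC0642. PS19 mice carry a transgene for human tau with the P301S mutation, driven by the mouse prion promoter, on the same hybrid background as the WT mice. UNC0642 is an inhibitor of EHMT1 and EHMT2, enzymes that place the repressive H3K9me2 mark, and was given by intraperitoneal injection in saline with DMSO, which alone was the vehicle. Tau mice were compared with WT mice to ask what the transgene changes, and UNC0642-treated Tau mice with vehicle-treated Tau mice and with WT mice to ask what the inhibitor changes.

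The meninges are the membranes around the brain, and their fibroblasts in the arachnoid and pia form a barrier, lay down collagen-rich matrix and take up or export solutes of the cerebrospinal fluid. These fibroblasts also make retinoic acid, which signals to the underlying cortex during development, and secrete binding proteins and carrier proteins into the fluid. Several of these genes are expressed in other brain cells too: Ptgds in oligodendrocytes, Slc13a3 and Igfbp2 in astrocytes, and Fn1 and Mgp in vessels. In bulk tissue, fewer fibroblasts in a sample and less RNA per fibroblast cannot be told apart. Whether the meninges were taken off the cortex at dissection is not given in the sources used here.

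Levels are given as CPM, the counts of a gene relative to the total of its library, scaled between libraries by the TMM method of edgeR, and the libraries held 17005664 to 28972176 counts. A gene was called higher or lower by the threshold of the study, a change of 1.2-fold or more with an unadjusted p-value under 0.05, here in edgeR's quasi-likelihood test on all 6 libraries. Adjusted p-values are from the Benjamini-Hochberg method over the 20409 genes. The library labelled WT replicate 1 went against its label: Prnp, whose promoter the transgene carries, was at 1652 CPM in it and at 873 CPM in WT replicate 2, while the 4 libraries of Tau mice ranged from 1470 to 1694 CPM. Mapt showed the same order, with 576 CPM in the library labelled WT replicate 1, 449 CPM in WT replicate 2 and 571 to 614 CPM in the other 4. Both libraries labelled WT were kept, and calls of the 10 genes and of the related lists against WT mice that were lost without this one are given. Xist, the RNA of the inactive X chromosome of females, was at 317, 191 and 235 CPM in WT replicate 2 and Tau replicates 1 and 2 and at no more than 0.197 CPM in the other 3 libraries, and the Y-linked Ddx3y had the opposite pattern. The vehicle-treated Tau libraries therefore shared a female pattern and the UNC0642-treated ones a male pattern, so sex and UNC0642 cannot be told apart in their comparison. Tau replicate 2 stood apart in the makeup of its tissue. Its 10 oligodendrocyte markers summed to 5794 CPM, against 1526 to 3093 CPM in the other libraries. Its 7 markers of striatal neurons summed to 226 CPM, against 84.0 to 104 CPM. WT replicate 2 had the lowest sum of both lists. The 8 neuron markers summed to 6041 to 7030 CPM and the 7 cortical neuron markers to 1305 to 1540 CPM, so the labelled tissue was present in every library.

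In P301S Tau mice, all 10 genes had a negative fold change relative to WT mice, and 4 of them were called lower: Slc6a13, a GABA and taurine transporter, Slc13a3, a dicarboxylate transporter, and the matrix genes Fn1 and Postn. None was called higher. Over all genes tested, 6.10% were called lower and 3.72% higher in this comparison. Fn1 and Postn are in the study's own list of genes lowered in Tau mice and reversed by UNC0642. That list was drawn from these same libraries, so their calls are not independent of it. The median log2 fold change of the 10 genes was -0.52, beside -0.00011 over all genes. None of the 10 had an adjusted p-value under 0.05, which 0.157% of all genes had, and their adjusted p-values ran from 0.248 to 0.949. For 5 of the 10 both Tau libraries lay below both WT libraries and for 0 both lay above, where 21.4% of all genes lay wholly below and 21.9% wholly above.

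Relative to vehicle-treated Tau mice, UNC0642-treated Tau mice had higher Fn1 and Postn and lower Igfbp2, an IGF-binding protein. These were 2 genes called higher and 1 called lower of 10, beside 3.73% and 3.95% of all genes. Both higher genes are in the study's list named above, so their calls here are not independent of it. Both UNC0642 libraries lay above both Tau libraries for 3 of the 10 genes and below them for 1, beside 20.4% and 20.9% of all genes. The median log2 fold change of the 10 genes was 0.15, beside -0.0023 over all genes. The lowest adjusted p-value among them was 0.395, and 0.0196% of all genes had one under 0.05. Relative to WT mice, UNC0642-treated Tau mice had lower Slc13a3 and Igfbp2, and none of the 10 genes was called higher, beside 5.69% of all genes called lower and 3.77% called higher. The 10 genes had a median of -0.31 there, beside -0.012 over all genes, and none had an adjusted p-value under 0.05, beside 0.216% of all genes. The UNC0642 libraries lay below both WT libraries for 3 genes and above both for 1, beside 22.3% and 22.1% of all genes. The comparisons share libraries: the Tau libraries enter the first and second, the UNC0642 libraries both comparisons of treated mice, and the WT libraries both comparisons with WT mice.

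**Figure D1:**
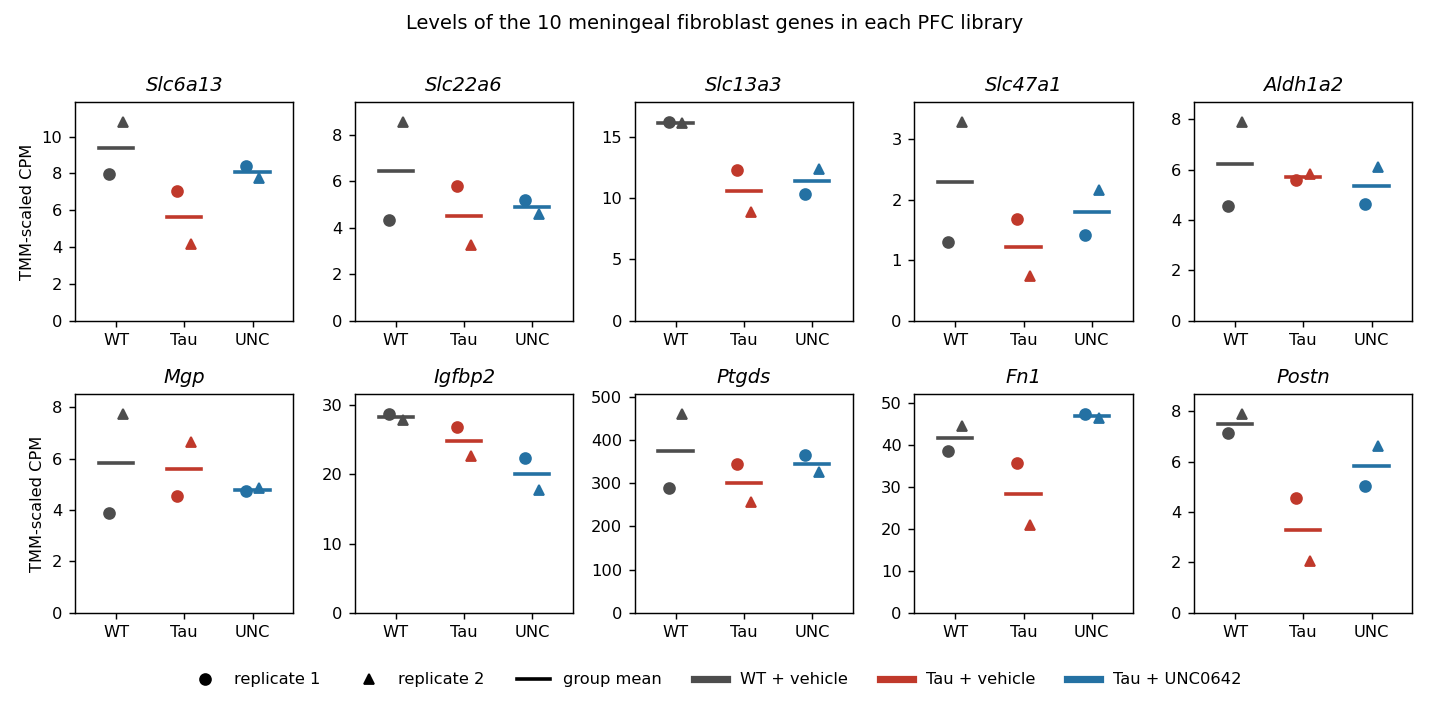
TMM-scaled CPM (vertical axis of each panel, starting at 0) of each of the 10 genes in the 3 groups, with circles for replicate 1, triangles for replicate 2 and a line at the group mean. WT replicate 2 is the highest of the 6 libraries for 7 of the 10 genes, and Tau replicate 2 is the lowest for 7.

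Compared per kilobase of exon, Ptgds was the most abundant of the 10 genes, with a mean of 206 CPM per kilobase over the 6 libraries, and its lowest library, at 155, was above the highest library of every other gene. Igfbp2 followed with a mean of 13.2 CPM per kilobase and a range of 9.58 to 15.5, which was also clear of the next gene. Mgp had a mean of 4.55, Fn1 of 3.34, Slc6a13 of 2.65, Aldh1a2 of 2.54 and Slc13a3 of 2.44 CPM per kilobase. The ranges over libraries of neighbours in this order overlapped from Mgp downwards, so that their order was not separated by the spread. Slc22a6, at 1.33, Postn, at 0.638, and Slc47a1, at 0.520 CPM per kilobase, were the lowest. Slc47a1 had 13 to 84 counts per library and Ptgds 4475 to 11772, so the values of Slc47a1 carry the largest counting error.

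All 10 genes are protein-coding and were placed by symbol in GENCODE M21 for the GRCm38 mouse genome. Slc6a13 spans chr6:121300227-121337733 on the plus strand, Slc13a3 chr2:165405028-165473230 on the minus strand, Igfbp2 chr1:72824503-72852474 on the plus strand and Postn chr3:54361109-54391037 on the plus strand. The sequences just before the starts of these 4 genes are printed because each was called in at least 1 comparison and has an entry in the RefSeq promoter table for GRCm38.p6. They are shown 5′ to 3′ on the strand of the gene, cut where the GENCODE gene begins, with letters in capitals where a searched motif matched. The intervals are chr6:121300038-121300226, chr2:165473231-165473447, chr1:72824230-72824479 and chr3:54360857-54361106.
Slc6a13: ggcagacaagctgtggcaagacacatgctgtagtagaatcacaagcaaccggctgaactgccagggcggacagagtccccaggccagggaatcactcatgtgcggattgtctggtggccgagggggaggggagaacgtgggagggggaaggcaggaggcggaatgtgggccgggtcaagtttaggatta
Slc13a3: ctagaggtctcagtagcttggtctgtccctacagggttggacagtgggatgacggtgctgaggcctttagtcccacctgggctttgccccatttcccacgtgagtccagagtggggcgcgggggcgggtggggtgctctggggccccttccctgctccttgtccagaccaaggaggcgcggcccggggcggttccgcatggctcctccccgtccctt
Igfbp2: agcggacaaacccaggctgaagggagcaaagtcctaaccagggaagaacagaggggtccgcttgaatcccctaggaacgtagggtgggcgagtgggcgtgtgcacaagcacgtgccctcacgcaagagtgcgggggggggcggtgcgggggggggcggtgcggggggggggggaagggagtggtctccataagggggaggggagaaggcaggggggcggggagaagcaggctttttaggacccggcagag
Postn: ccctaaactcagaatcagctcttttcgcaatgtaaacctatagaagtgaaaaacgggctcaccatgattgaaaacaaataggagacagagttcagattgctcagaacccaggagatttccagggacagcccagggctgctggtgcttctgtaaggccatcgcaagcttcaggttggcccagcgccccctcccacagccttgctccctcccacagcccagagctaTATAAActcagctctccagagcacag

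In the 250 bases before the start, 4 motifs were searched on both strands: a forkhead motif (GTAAACA), a T-box motif (AGGTGTGA), a retinoic acid receptor motif (AGGTCA repeated in the same direction with 5 bases between the copies) and a TATA box (TATAAA). Of the 10 genes, 7 had an entry in the table, with 11 windows in all. The only match was the TATA box of Postn, whose first base lies 26 bases before the start, and which 12.4% of all 32851 windows of this length hold. The forkhead motif was in 3.17% of all windows, the T-box motif in 1.12% and the retinoic acid receptor motif in 0.00913%. The 7 windows nearest the principal transcript starts had a median GC content of 60.8%, beside 52.4% over all windows. Aldh1a2, Slc22a6 and Ptgds, the other genes with an entry, had no match in theirs.

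Among the transporters, Slc6a13, the GABA transporter GAT2 of the meninges, had 7.96 CPM in the library labelled WT replicate 1 and 10.8 CPM in WT replicate 2, and was, in the same order of replicates, at 7.04 and 4.18 CPM in Tau mice and at 8.41 and 7.76 CPM in UNC0642-treated Tau mice. Both Tau libraries were below both WT libraries and below both UNC0642 libraries, while the UNC0642 and WT libraries overlapped. Tau mice differed from WT mice by a log2 fold change of -0.72 (standard error, SE, 0.25, adjusted p = 0.316). It was -0.92 without the library labelled WT replicate 1 and was no longer called without WT replicate 2, at -0.48, or without Tau replicate 2, at -0.41. After UNC0642 the log2 fold change was 0.50 (SE 0.25, adjusted p = 0.601), which was not called, with a 95% confidence interval of -0.061 to 1.07. It was called at 0.95 without Tau replicate 1.

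Slc13a3, the sodium-coupled dicarboxylate transporter NaDC3, was at 16.2 and 16.1 CPM in WT mice, at 12.3 and 8.82 CPM in Tau mice and at 10.3 and 12.4 CPM in UNC0642-treated Tau mice. The WT libraries differed by a factor of 0.991 and were above the other 4 libraries. Tau mice were lower than WT mice by a log2 fold change of -0.60 (SE 0.18, adjusted p = 0.268), and UNC0642-treated Tau mice by -0.51 (SE 0.18, adjusted p = 0.296). Between UNC0642-treated and vehicle-treated Tau mice it was 0.094, with a 95% confidence interval of -0.31 to 0.49. The change in Tau mice was -0.59 without the library labelled WT replicate 1 and -0.39, not called, without Tau replicate 2. The lower level of UNC0642-treated than of WT mice was not called without UNC0642 replicate 1, at -0.38.

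Slc22a6, the organic anion transporter OAT1 (chr19:8618039-8628299, plus strand), was at 4.34 and 8.55 CPM in WT mice, at 5.79 and 3.26 CPM in Tau mice and at 5.21 and 4.59 CPM after UNC0642. Its groups overlapped in every comparison, and the replicates of WT differed by 1.97 times and those of Tau by 1.77 times. Between UNC0642-treated Tau and WT mice the log2 fold change was -0.40. It was -0.81 without the library labelled WT replicate 1 and 0.17 without WT replicate 2. The log2 fold change of Slc22a6 between Tau and WT mice, -0.49 (SE 0.34, adjusted p = 0.592), was not called with all libraries, was called at -0.89 without the library labelled WT replicate 1 and at -0.98 without Tau replicate 1, and turned to 0.089 without WT replicate 2. Slc47a1, the MATE1 exporter of organic cations (chr11:61343401-61378345, minus strand), was at 1.30 and 3.28 CPM in WT mice, at 1.68 and 0.744 CPM in Tau mice and at 1.42 and 2.16 CPM after UNC0642. Its replicates of WT differed by 2.52 times and those of Tau by 2.26 times, and the difference between Tau and WT mice, -0.87 on the log2 scale (SE 0.51, adjusted p = 0.515), was within that spread. It was called at -1.38 without the library labelled WT replicate 1 and at -1.62 without Tau replicate 1, and was not called at -0.051 without WT replicate 2 or at -0.44 without Tau replicate 2.

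Aldh1a2, the enzyme that makes retinoic acid from retinaldehyde (chr9:71215789-71296243, plus strand), was at 4.57 and 7.89 CPM in WT mice, at 5.58 and 5.84 CPM in Tau mice and at 4.62 and 6.09 CPM after UNC0642. The WT libraries were the lowest and the highest of the 6, and all groups overlapped. Between Tau and WT mice the log2 fold change was -0.13 (SE 0.27), between UNC0642-treated and vehicle-treated Tau mice it was -0.084 (SE 0.28), and between UNC0642-treated Tau and WT mice it was -0.21 (SE 0.27), with adjusted p-values of 0.880, 0.957 and 0.795. The 95% confidence interval in Tau mice ran from -0.73 to 0.47, so a fall such as that of Slc13a3 was within it. Without the library labelled WT replicate 1, Aldh1a2 was at -0.47 in Tau and -0.55 in UNC0642-treated Tau mice relative to WT. Without WT replicate 2 these values were 0.32 and 0.24.

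Mgp, the vitamin K-dependent matrix Gla protein that keeps tissue from calcifying (chr6:136872435-136875823, minus strand), was at 3.90 and 7.73 CPM in WT mice, at 4.54 and 6.64 CPM in Tau mice and at 4.74 and 4.85 CPM after UNC0642. Its replicates of WT differed by 1.98 times, and the groups overlapped in all comparisons. Between Tau and WT mice Mgp had a log2 fold change of -0.071 (SE 0.31, adjusted p = 0.949), with a 95% confidence interval of -0.77 to 0.63. It was 0.50 without WT replicate 2 and -0.49 without the library labelled WT replicate 1. Between UNC0642-treated Tau and WT mice the log2 fold change was -0.28, and 0.30 and -0.69 in those same fits.

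Igfbp2, which binds insulin-like growth factors, was at 28.7 and 27.9 CPM in WT mice, at 26.8 and 22.7 CPM in Tau mice and at 22.4 and 17.7 CPM after UNC0642. The 3 groups did not overlap and lay in that order. The step from WT to Tau mice, -0.19 on the log2 scale (SE 0.14, adjusted p = 0.600), was not called. It was lower in UNC0642-treated than in vehicle-treated Tau mice, by a log2 fold change of -0.31 (SE 0.14, adjusted p = 0.558), with a 95% confidence interval of -0.62 to -0.004. That call was lost in 8 of 17 alternatives, among them DESeq2's size factors and Wald test and a term for the Xist-high libraries, while the value stayed between -0.49 and -0.15. Relative to WT mice the UNC0642-treated Tau mice were lower by a log2 fold change of -0.50 (SE 0.14, adjusted p = 0.208), called in 16 of 17 alternatives. The exception was the fit without UNC0642 replicate 2, at -0.34, and the value was -0.48 without the library labelled WT replicate 1.

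Ptgds, the lipocalin-type prostaglandin D synthase that is also an abundant carrier protein of the cerebrospinal fluid (chr2:25466709-25470046, minus strand), was at 289 and 460 CPM in WT mice, at 345 and 256 CPM in Tau mice and at 365 and 325 CPM after UNC0642. WT replicate 2 was the highest library, Tau replicate 2 the lowest, and the groups overlapped in every comparison. Ptgds had a log2 fold change of -0.32 between Tau and WT mice (SE 0.19, adjusted p = 0.529) and of 0.20 between UNC0642-treated and vehicle-treated Tau mice (SE 0.19, adjusted p = 0.811). In Tau mice it was called at -0.61 without the library labelled WT replicate 1 and was 0.061 without WT replicate 2. Between UNC0642-treated Tau and WT mice the log2 fold change was -0.12. It was -0.42 without the library labelled WT replicate 1 and 0.26 without WT replicate 2. Ptgds was lowest in Tau replicate 2, where the summed oligodendrocyte markers were highest, and highest in WT replicate 2, where they were lowest. Which cells its RNA came from was not tested.

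**Figure D2:**
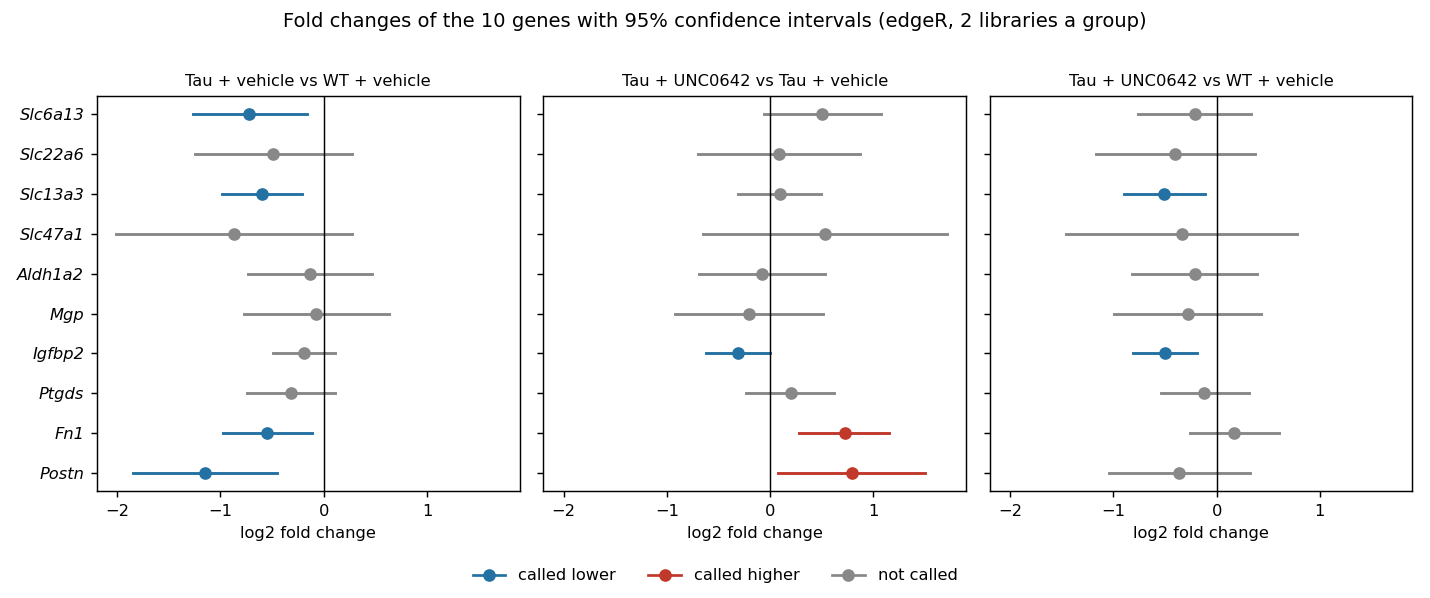
Log2 fold change (horizontal axis) of each of the 10 genes in the 3 comparisons, with points for edgeR's estimate and bars for its 95% confidence interval from 2 libraries a group, in blue where called lower, red where called higher and gray where not called. Postn in Tau relative to WT mice, at -1.15, is the value farthest from 0 among those called.

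Fn1 and Postn encode secreted matrix proteins. Fibronectin binds integrins, collagens and heparan sulfate and carries much of the early matrix (chr1:71585520-71653200, minus strand), and periostin binds fibronectin, tenascin C and collagen I. Both genes are also in the study's own list of genes lowered in Tau mice and reversed by UNC0642, which was drawn from these same libraries, so their direction here is not independent of that list. Fn1 was at 38.7 and 44.6 CPM in WT mice, at 35.7 and 20.9 CPM in Tau mice and at 47.4 and 46.4 CPM in UNC0642-treated Tau mice. The UNC0642 libraries were above all the others, and the Tau libraries were below all the others. Fn1 was lower in Tau than in WT mice by a log2 fold change of -0.55 (SE 0.20, adjusted p = 0.325), and UNC0642-treated Tau mice were higher than vehicle-treated ones by 0.72 (SE 0.20, adjusted p = 0.395). UNC0642-treated Tau mice were not called different from WT mice in Fn1, with a log2 fold change of 0.17 and a 95% confidence interval of -0.26 to 0.60.

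The lower Fn1 of Tau mice rested on Tau replicate 2, which was at 20.9 CPM: without it the log2 fold change was -0.22 and not called, and without Tau replicate 1 it was -1.0. It was -0.64 without the library labelled WT replicate 1 and -0.43, not called, without WT replicate 2. The higher Fn1 after UNC0642 was called in all 17 alternatives, with log2 fold changes from 0.39 without Tau replicate 2 to 1.17 without Tau replicate 1. DESeq2's Wald test gave it an adjusted p-value of 0.038, and over all alternatives its adjusted p-value ranged from 1.71e-06, with no filter on low counts, to 0.771. Of the 11685 exon bases of Fn1, 292 overlap exons of Apol7d on the opposite strand, and whether the counting used the strand is not given in the sources used here.

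Postn was at 7.14 and 7.89 CPM in WT mice, at 4.54 and 2.06 CPM in Tau mice and at 5.03 and 6.62 CPM in UNC0642-treated Tau mice. The 3 groups did not overlap, with UNC0642-treated mice between the others. Tau mice were lower than WT mice by a log2 fold change of -1.15 (SE 0.31, adjusted p = 0.248), a mean of 3.30 ± 1.8 CPM (SD, n = 2) against 7.51 ± 0.53 CPM (SD, n = 2). It was called without each library in turn, from -1.86 without Tau replicate 1 to -0.72 without Tau replicate 2, and was -1.21 without the library labelled WT replicate 1. After UNC0642 it was 0.79 (SE 0.32, adjusted p = 0.523), not called without Tau replicate 2, at 0.36, or without UNC0642 replicate 2, at 0.57. The level of UNC0642-treated Tau mice differed from that of WT mice by a log2 fold change of -0.36, with a 95% confidence interval of -1.04 to 0.32.

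The differences between replicates were large beside the differences between groups. On the log2 scale, the 2 WT libraries differed by more than the means of Tau and WT mice for 5 of the 10 genes, the 2 Tau libraries did so for 6, and either pair did so for 7. Slc6a13, Slc13a3 and Postn were the 3 genes for which neither did. Without Tau replicate 2 only Postn was called in Tau relative to WT mice and the median of the 10 genes was -0.29. The fit without WT replicate 2 called 2 genes lower, with a median of -0.13, and the fit without Tau replicate 1 called 7 lower, with a median of -0.93. Of all genes, these 3 fits called 5.51%, 5.25% and 4.97% lower. Without the library labelled WT replicate 1, which leaves only libraries with the female pattern in this comparison, 7 genes were called lower and the median was -0.63, where 4.64% of all genes were called lower and their median was 0.00062. In these fits a group with 1 library is taken to vary like the other groups. Without the library labelled WT replicate 1, the WT group is WT replicate 2 alone, the highest library for 7 of the 10 genes. In UNC0642-treated Tau relative to WT mice, where the library labelled WT replicate 1 shares the male pattern of the UNC0642 libraries, the fit without WT replicate 2 called 2 genes with a median of 0.20, and the fit without the library labelled WT replicate 1 called 6 with a median of -0.49, where 5.34% and 4.76% of all genes were called lower. With a term for the Xist-high libraries, 4 genes were called after UNC0642 (Slc6a13, Slc47a1, Ptgds and Fn1, all higher). The median of the 10 was 0.89, where 4.04% of all genes were called higher and their median was -0.01. Only the WT libraries can inform that term. It carries any difference between them and not sex alone, and the library labelled WT replicate 1 went against its label. With no filter on low counts, 7 genes were called in Tau mice, and Slc6a13, Slc13a3, Ptgds, Fn1 and Postn had adjusted p-values from 0.000508 to 0.0364. In that fit 34535 genes were tested, of which 5.47% were called lower and 1.9% had an adjusted p-value under 0.05, beside 0.157% in the filtered fit.

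**Figure D3:**
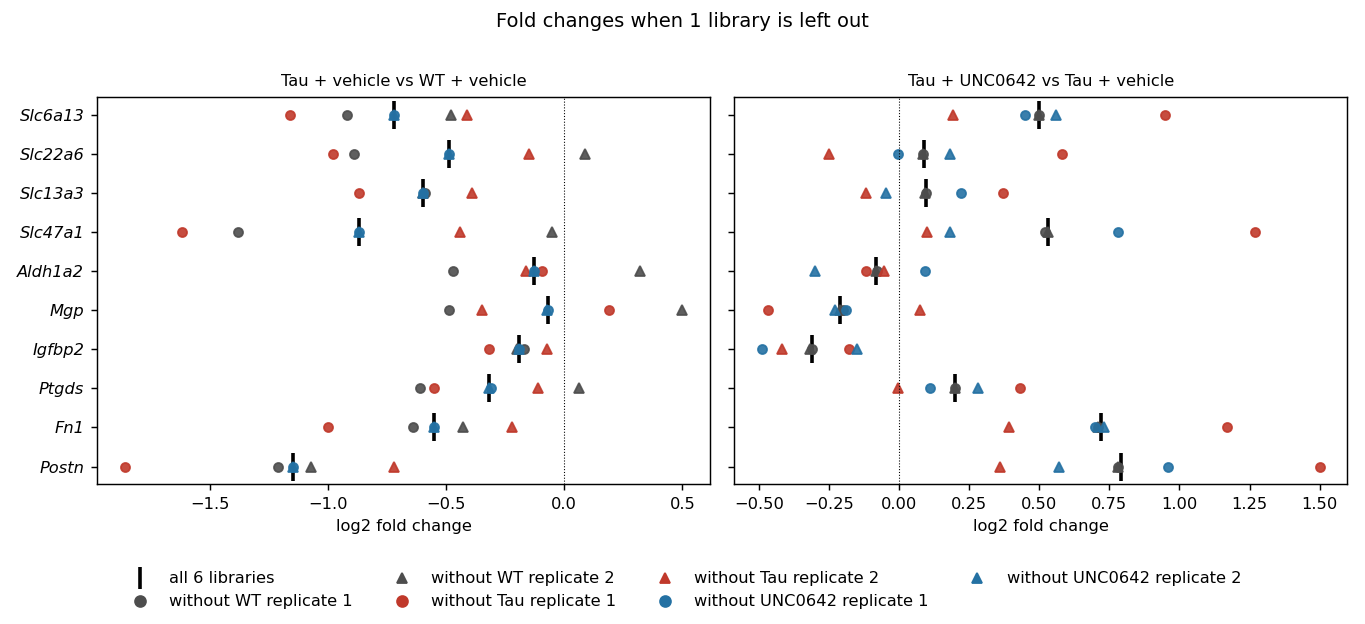
Log2 fold change (horizontal axis) of each gene in Tau relative to WT mice (left) and in UNC0642-treated relative to vehicle-treated Tau mice (right), with a vertical bar for all 6 libraries and symbols for the fits without each library in turn. Without WT replicate 2 (gray triangles), Slc22a6, Aldh1a2, Mgp and Ptgds move above 0 on the left.

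Most of the 10 genes had the same libraries at the extremes. WT replicate 2 was the highest library for 7 genes and Tau replicate 2 the lowest for 7, and the mean of the standardised log2 levels was 1.24 in WT replicate 2, -1.04 in Tau replicate 2 and between -0.12 and 0 in the other 4 libraries. Each gene's Pearson correlation with the mean of the other 9 over the 6 libraries was 0.94 for Slc22a6, 0.93 for Slc47a1, 0.89 for Ptgds and 0.88 for Slc6a13. It was 0.76 for Postn, 0.71 for Slc13a3 and 0.63 for Fn1, and lower for Aldh1a2 at 0.47, Igfbp2 at 0.24 and Mgp at 0.16. Over the 45 pairs of genes the median was 0.55, and 5 pairs were negative. These correlations are over 6 libraries that share groups and dissections and are given as a description.

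The gene whose levels were most like the mean of the 10 genes, among 16368 genes at a mean of at least 1 CPM, was Col1a2, which encodes a chain of type I collagen, with a Pearson r of 0.995 over the 6 libraries. Bicc1, an RNA-binding protein, had an r of 0.994, the sulfate transporter Slc13a4 0.982 and Ranbp3l 0.979. Gm33533, Cfap206, Cttnbp2, Gm3510, Angptl6 and Ppp1r9b completed the first 10, down to an r of 0.974. Col1a2 itself was at 15.2 and 24.3 CPM in WT mice, at 16.4 and 11.2 CPM in Tau mice and at 14.8 and 16.3 CPM after UNC0642. WT replicate 2 was again the highest and Tau replicate 2 the lowest library. Of a list of 30 other genes of meningeal fibroblasts, 26 were among these candidates, and their median r was 0.78, beside -0.04 over all candidates.

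All 30 of these other fibroblast genes passed the filter on low counts and none was at 0 in any library, so RNA of meningeal fibroblast markers was counted in every sample. Beside the counts of this list and of those below stand the shares of all genes. In Tau relative to WT mice 6.10% of all genes were called lower and 3.72% higher. These shares were 3.95% and 3.73% after UNC0642, and 5.69% and 3.77% in treated relative to WT mice. In Tau relative to WT mice 10 of the 30 fibroblast genes were called lower and 0 higher, with a median log2 fold change of -0.57. None of the 30 had an adjusted p-value under 0.05. The called genes were the matrix genes Fmod (-1.03), Bgn (-0.64), Col3a1 (-0.62) and Islr (-0.59), the signal genes Wnt6 (-1.83) and Bmp6 (-0.87), the retinoic acid-binding Crabp2 (-1.89), the transcription factor gene Foxd1 (-1.08), the gap junction gene Gjb2 (-0.82) and the cadherin gene Cdh1 (-1.06), each with its log2 fold change. After UNC0642, Cdh1 (1.38), Fmod (0.85) and Col3a1 (0.74) were called higher and Col6a3 (-0.51) lower, with a median of 0.16 over the 30. Relative to WT mice, UNC0642-treated Tau mice had 7 of the 30 lower and 0 higher, with a median of -0.38: Bgn (-0.81), Islr (-0.76), Col1a1 (-0.72), Bmp6 (-0.68), Bmp7 (-0.66), Serpinf1 (-0.63) and Col6a3 (-0.54). Crabp2, Fmod and Cdh1 are also in the study's list of reversed genes. Without the library labelled WT replicate 1, 12 of the 30 were called lower in Tau mice, with a median of -0.69, among them 6 of the 10 above. Wnt6 (-1.03), Col3a1 (-0.65), Bgn (-0.58) and Islr (-0.38) were then not called, and Wnt6 was at 1.97 CPM in that library and at 0.781 CPM in WT replicate 2. In UNC0642-treated Tau relative to WT mice, Bgn, Bmp7 and Islr lost their calls, and 8 of the 30 were called lower.

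**Figure D4:**
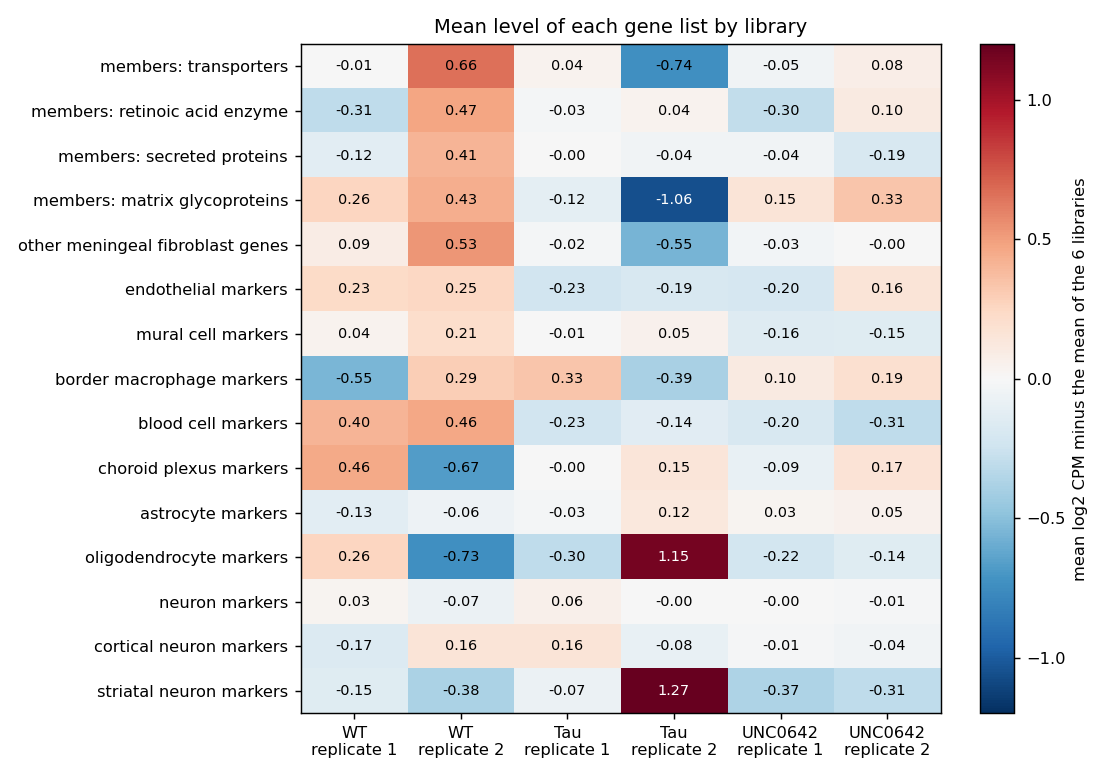
Mean log2 CPM of each list of genes in each library, as the difference from the mean of the 6 libraries (red above, blue below). The rows of transporters, matrix glycoproteins and other meningeal fibroblast genes share a high value in WT replicate 2 and a low value in Tau replicate 2, where the oligodendrocyte and striatal rows are 1.15 and 1.27 above their means.

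The mean log2 CPM of the 30 other fibroblast genes was 2.11 and 2.55 in WT mice, 2.0 and 1.47 in Tau mice and 1.99 and 2.02 in UNC0642-treated Tau mice. WT replicate 2 was the highest and Tau replicate 2 the lowest library, as for most of the 10 genes. When the mean of these genes, without the abundant Nov, was put into the model as a term, Ptgds was the only one of the 10 genes called in Tau relative to WT mice, higher at 0.39, and the median was 0.11, where 5.97% of all genes were called higher and 5.08% lower. Slc6a13 was then at -0.0068, Fn1 at 0.038, Slc13a3 at -0.31 and Postn at -0.45. After UNC0642 the same term left 2 genes called and a median of -0.058, and Fn1, at 0.48, and Igfbp2, at -0.36, were those called. In treated relative to WT mice it left 3 called, Igfbp2 lower at -0.44 and Fn1 and Ptgds higher at 0.52 and 0.30. Of all genes, 4.05% were called higher and 5.12% lower after UNC0642 in this fit, and 4.46% higher and 5.71% lower relative to WT mice. The summed CPM of all 30, of which Nov made up 40.5% to 52.6%, was also used as the term. In that fit 4 genes were called lower in Tau mice, with a median of -0.21, beside 6.13% of all genes. Nov was at 107 and 146 CPM in WT mice and at 163 and 95.3 CPM in Tau mice, so these groups overlapped. Without Nov the sum was 157 and 207 CPM in WT mice and 147 and 115 CPM in Tau mice, with no overlap. The summed term thus followed Nov in large part. Its 4 calls cannot tell whether these genes were lower at equal fibroblast RNA. With 6 libraries a term of this kind takes 1 of 3 residual degrees of freedom and shares part of the difference between groups.

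Markers of other cells of the brain surface and vessels did not all follow this order. The 10 endothelial markers were at 267 and 269 CPM in sum in WT mice, at 204 and 211 CPM in Tau mice and at 210 and 268 CPM after UNC0642. In Tau mice 5 of the 10 were called lower and 0 higher, among them Cldn5, a tight junction gene, with a log2 fold change of -1.10 (SE 0.17, adjusted p = 0.0467), and Kdr, a VEGF receptor gene, with -0.78. The other 3 were Slco1a4 (-0.48), Tek (-0.46) and Flt1 (-0.35). Cldn5 is in the study's list of lowered and reversed genes, drawn from these same libraries, so its calls are not independent of it. Without the library labelled WT replicate 1, Cldn5 was at -0.84 with an adjusted p-value of 0.15 in edgeR's test, and Tek was not called. Of the 5 blood cell markers, Hbb-bs (-0.69) and Alas2 (-0.59) were called lower, and the list summed to 60.7 and 63.4 CPM in WT, 39.7 and 39.0 CPM in Tau and 41.3 and 66.2 CPM in UNC0642-treated Tau mice. Alas2 was not called without the library labelled WT replicate 1, at -0.42. After UNC0642, Cldn5 (0.53), Hbb-bs (0.47) and Hba-a1 (1.14) were called higher. Relative to WT mice, 4 of the 10 endothelial markers were called lower in treated mice and 0 higher. They were Kdr (-0.79), Cldn5 (-0.57), Slco1a4 (-0.42) and Tek (-0.39). In that comparison Cldn5 was at -0.31 and Tek at -0.25 without the library labelled WT replicate 1. Hba-a1 was at 15.4 CPM in UNC0642 replicate 2 and at 4.14 CPM in replicate 1, which overlapped the Tau libraries, and its near-identical copy Hba-a2 was at 0.0882 CPM in replicate 2 and 3.02 CPM in replicate 1, so the split of reads between the copies is uncertain. Of the mural cell markers Pdgfrb (-0.40) was called lower and Abcc9 (0.47) higher in Tau mice. Abcc9 is in the study's list of genes raised in Tau mice and reversed by UNC0642. After UNC0642, Acta2 (-0.72) and Myh11 (-0.49), genes of smooth muscle, and Abcc9 (-0.47) were called lower, and relative to WT mice Myh11 (-0.88) was lower and Kcnj8 (0.67) higher in treated mice. Of the 7 border macrophage markers tested none was called. All 7 striatal markers and 4 of the 10 oligodendrocyte markers were called higher in Tau mice, with medians of 0.94 and 0.78. After UNC0642, 6 and 2 of them were called lower. Drd1, Drd2, Adora2a, Ppp1r1b, Rgs9 and Penk are in the study's list of raised and reversed genes. So are Mbp, Mog, Mag, Cldn11, Ermn and Mal. That list was drawn from these same libraries, so these calls are not independent of it. In sum the oligodendrocyte markers were at 2138 and 5794 CPM in Tau and 3093 and 1526 CPM in WT mice. The striatal ones were at 104 and 226 CPM in Tau and 99.5 and 84 CPM in WT mice. Both Tau libraries lay above both WT libraries for 0 of the oligodendrocyte and 3 of the striatal markers. In the fit without the library labelled WT replicate 1, 4 of the striatal and 10 of the oligodendrocyte markers were called higher in Tau mice. Of the 10 choroid plexus markers, 5 passed the filter on low counts. Ttr, the most abundant transcript of that tissue, had no count in 4 of the 6 libraries and at most 1.37 CPM, in Tau replicate 2. Kl was at 1.66 to 3.26 CPM, a level like that of Slc47a1. Prlr was called higher in Tau (2.34) and in UNC0642-treated Tau mice (2.16) relative to WT mice, from 0.156 to 0.315 CPM in WT to 0.888 to 1.43 CPM in the other libraries. Aqp1 was called lower in both (-3.54 and -3.49), with 9.93 CPM in the library labelled WT replicate 1 and 0.265 to 0.71 CPM in the others, and was not called without that library. The part of these cell types in the results for the 10 genes was not tested.

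Of the 11 related solute carriers tested, 5 were called lower in Tau relative to WT mice and 0 higher, beside 6.10% and 3.72% of all genes. The median log2 fold change of the 11 was -0.36. The 5 called were Slc13a4 (-0.73), Slc22a8, the organic anion transporter OAT3 (-0.72), the proline transporter Slc6a20a (-0.57), the GABA transporter Slc6a11 (-0.40) and the taurine transporter Slc6a6 (-0.36). Slc13a4, Slc22a8 and Slc6a20a were highest in WT replicate 2 and lowest in Tau replicate 2, as most of the 10 genes were. Slc6a11 and Slc6a6 were highest in the library labelled WT replicate 1. Slc22a8, a close relative of Slc22a6, was at 9.11 and 12.8 CPM in WT mice, at 8.04 and 5.04 CPM in Tau mice and at 6.87 and 7.45 CPM after UNC0642. Its groups did not overlap between WT and Tau mice, unlike those of Slc22a6. None of the 11 was called after UNC0642. Relative to WT mice, UNC0642-treated Tau mice had lower Slc22a8 (-0.61), Slc6a11 (-0.51), the citrate transporter Slc13a5 (-0.49) and Slc6a6 (-0.39), and the lowest adjusted p-value in any of these comparisons was 0.143. The calls of Slc6a11 rested on the library labelled WT replicate 1, where it was at 138 CPM, beside 88.5 CPM in WT replicate 2 and 78.6 to 88.0 CPM in the other 4. Without that library its log2 fold changes were -0.046 in Tau and -0.16 in UNC0642-treated Tau mice, while the other calls of these carriers against WT mice remained.

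Of 15 other genes of the retinoic acid pathway that were tested, 1 was called lower and 2 higher in Tau relative to WT mice. The shares of all genes were 6.10% and 3.72%, and the median of the 15 was -0.017. The receptor gene Rara was at 9.03 and 8.44 CPM in WT mice, at 15.4 and 15.5 CPM in Tau mice and at 14.3 and 12.7 CPM after UNC0642, and was higher in Tau than in WT mice by 0.82 on the log2 scale (SE 0.14, adjusted p = 0.0666) and by 0.63 in treated mice. Aldh1a1, a second retinaldehyde dehydrogenase gene, was at 34.8 and 41.4 CPM in WT mice, at 45.8 and 57.5 CPM in Tau mice and at 31.7 and 27.7 CPM after UNC0642. It was higher in Tau mice, by a log2 fold change of 0.44, and lower after UNC0642, by -0.80 (SE 0.14, adjusted p = 0.144), and it is in the study's list of raised and reversed genes. The gene called lower in Tau mice was Crabp2. After UNC0642, Rxrg (-0.75) and the retinol carrier Rbp4 (-0.41) were lower and Dhrs3 (0.31) was higher. Compared with WT mice, treated mice had lower Rxrg (-0.59) and Aldh1a1 (-0.36). Without the library labelled WT replicate 1, Aldh1a1 in Tau mice (0.31) and Rxrg in treated mice (-0.57) were not called, and Rara stayed called at 0.87 in Tau and 0.67 in treated mice.

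**Figure D5:**
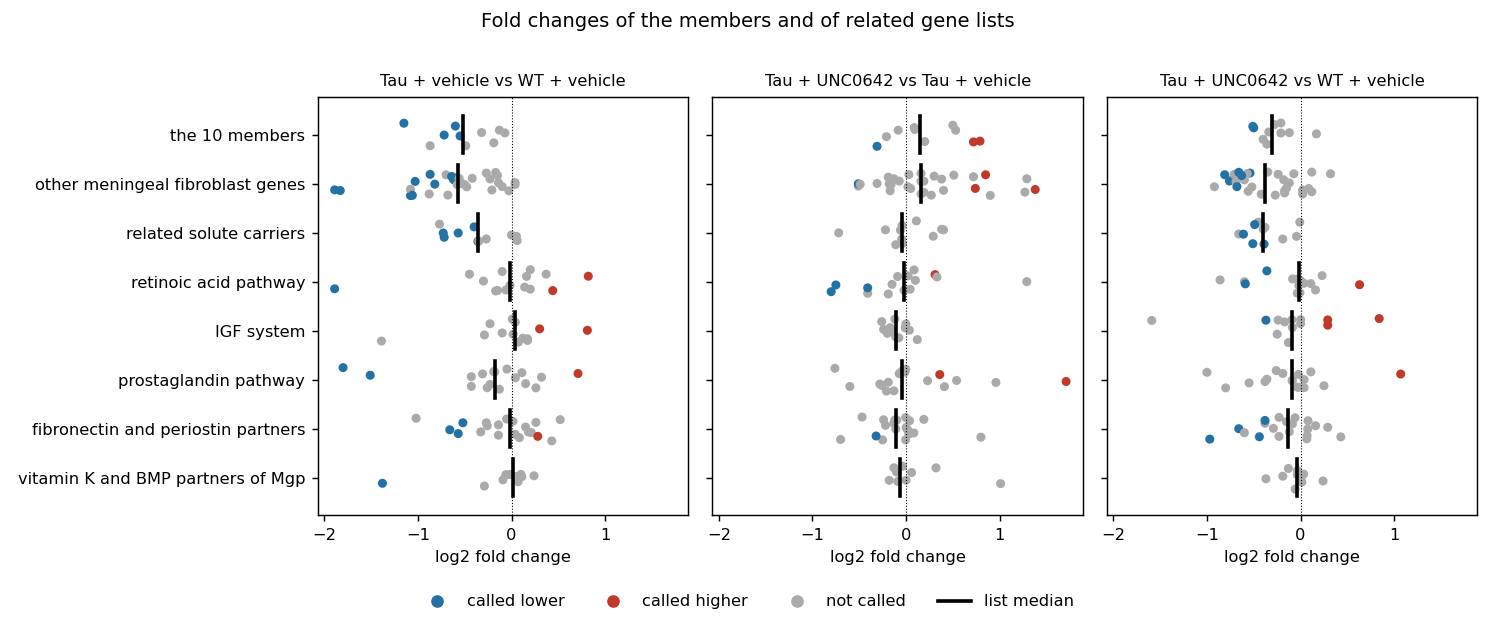
Log2 fold change (horizontal axis) of every tested gene in the 10 members and in 7 related lists, for the 3 comparisons, with points colored by call and a black bar at the median of the list. In Tau relative to WT mice the medians are -0.52 for the 10 genes, -0.57 for other meningeal fibroblast genes and -0.36 for related solute carriers, while the other lists lie between -0.18 and 0.04.

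In the IGF system, to which Igfbp2 belongs, 2 of 13 genes tested were called higher in Tau mice and 0 lower. The shares of all genes were 3.72% and 6.10%, and the median of the 13 was 0.04. Irs2, the adaptor of the insulin and IGF receptors, was at 40.7 and 45.3 CPM in WT mice, at 84.5 and 65.6 CPM in Tau mice and at 73.3 and 80.6 CPM after UNC0642. It was higher than in WT mice by 0.81 on the log2 scale in Tau mice (SE 0.12, adjusted p = 0.0457) and 0.84 in UNC0642-treated Tau mice (SE 0.12, adjusted p = 0.0295). Igfbp4 was higher by 0.30 in Tau mice and 0.29 in UNC0642-treated Tau mice relative to WT, and Htra1, a protease of binding proteins, by 0.29 in the latter. Igfbp7 was lower there, by -0.37. None of the 13 was called after UNC0642, where Igfbp2 was. In the fit without the library labelled WT replicate 1, Irs2 stayed called at 0.73 and 0.76, with adjusted p-values of 0.173 and 0.103 in edgeR's test, and Igfbp7 was not called.

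In the prostaglandin pathway, 2 of 17 genes tested were called lower and 1 higher in Tau relative to WT mice. The shares of all genes were 6.10% and 3.72%, and the median of the 17 was -0.18. Ptgs2, the inducible cyclooxygenase that supplies the substrate of Ptgds, was at 19.9 and 21.8 CPM in WT mice, at 32.2 and 36.2 CPM in Tau mice and at 43.6 and 44.0 CPM after UNC0642. No groups overlapped. Compared with WT mice its log2 fold change reached 0.71 without the inhibitor (SE 0.11, adjusted p = 0.0453) and 1.07 with it (SE 0.11, adjusted p = 0.00438), and it was 0.36 between treated and untreated Tau mice. The receptor genes Ptgfr, at 0.344 to 2.42 CPM, and Ptgdr, at 0.401 to 1.72 CPM, were lower in Tau mice by log2 fold changes of -1.80 and -1.51. Ptgfr was higher after UNC0642 by 1.71 and is in the study's list of reversed genes. Without the library labelled WT replicate 1 these calls against WT mice remained, and Ptgs2 was at 0.65 and 1.01, with adjusted p-values of 0.155 and 0.014 in edgeR's test.

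Of 20 tested partners of fibronectin and periostin, 3 were called lower and 1 higher in Tau mice, beside 6.10% and 3.72% of all genes. The median of the 20 was -0.019. The lower genes were Tnc (-0.66), which encodes tenascin C, Bmp1 (-0.57), a protease that matures collagens, and Vtn (-0.52), which encodes vitronectin, and the higher one was the integrin gene Itgb5 (0.28). After UNC0642 only Sparc was called, lower by -0.32, while Fn1 and Postn were higher. Relative to WT mice, UNC0642-treated Tau mice had lower Loxl1 (-0.97), Tnc (-0.66), Vtn (-0.44) and Bmp1 (-0.38). Of 10 tested partners of Mgp in vitamin K and BMP signaling, 1 was called lower in Tau mice, beside 6.10% of all genes. It was Bmp4, at -1.38 (SE 0.49, adjusted p = 0.324) from a level of 0.458 to 1.89 CPM over the libraries. Bmp4 is in the study's list of reversed genes. No other partner of Mgp was called in any of the 3 comparisons. In the fit without the library labelled WT replicate 1, Tnc (-0.67), Itgb5 (0.19) and Bmp4 (-1.31) were not called in Tau mice, and Tnc (-0.68) and Vtn (-0.25) were not called in treated relative to WT mice.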

How the data were processed

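RNA of PFC tissue was examined in 6 libraries, 2 biological replicates in each of 3 groups taken from the titles. The authors trimmed reads with Cutadapt, aligned them with TopHat2 and made counts per gene with featureCounts, which they deposited without normalization as 54429 rows per library. The labels list mm10. The strand setting and tool versions are not given in the sources used here. Dates stood in place of 26 gene names in 2 libraries, whose rows were joined by position.

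Genes were kept by filterByExpr (minimum count 10, minimum total 15). The counts were scaled by TMM (factors 0.966 to 1.04) and fitted with a mean per group in edgeR 4.0.16 under R 4.3.3, with limma 3.58.1 and DESeq2 1.42.0 for alternatives. Standard errors and 95% confidence intervals came from the model and SDs from 2 libraries. Correlations and mean log2 values used a prior count of 2. A count of 0 allows up to 3 counts, or 0.104 to 0.176 CPM, by counting error only. The fit was tested on simulated data. Python 3.11.15, pandas 2.3.3 and matplotlib 3.10.9 made the tables and figures. Replicate numbers of the libraries did not pair mice.

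The 10 genes and all lists were chosen with earlier results of these data known. Beyond the 10, genes of the 7 related lists were named if called in any comparison, with the 10 most similar profiles and the genes that check the labels. Genes of the cell type marker lists were named after their values were seen, and not all called markers are named. Alternatives were other scalings, filters, tests, thresholds and group sets, a replicate block, terms for Xist and fibroblast RNA, and leaving out each library. The term without Nov and the list values without the library labelled WT replicate 1 were added after seeing the data.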

Additional observations from a re-analysis of the deposited data

How the results depend on the processing

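Of the alternatives for single genes, 415 kept the direction and the side of the threshold, 47 changed sign, 24 lost the call and 24 gained one. Of those for the counts and medians, 137 stayed near the main value. That meant a count within a factor of 1.5, or a median of the same sign within 0.3, the SD between replicates of the mean log2 CPM. Of the rest, 10 counts were higher and 8 lower, 5 medians changed sign and 5 moved by more than 0.3. In Tau relative to WT mice the called genes went from 4 to 7 with no filter and with a term for Xist-high libraries, with 5 adjusted p-values under 0.05 with no filter, and to 1 with the fibroblast term without Nov. The median was -0.21 with the summed fibroblast term and 0.11 with the term without Nov. With the Xist term it was -0.63, as in the fit without the library labelled WT replicate 1. Both compare the Tau libraries with WT replicate 2, so these fits are not separate results. After UNC0642, 1 gene was called with only the compared groups, and 1 had an adjusted p-value under 0.05 with no filter and with DESeq2's Wald test. The median was 0.89 with the Xist term, which only the WT libraries inform, and -0.058 with the fibroblast term without Nov. In UNC0642-treated Tau relative to WT mice, 0 genes were called at a fold change of 1.5, 1 had an adjusted p-value under 0.05 with no filter, and the median was 0.20 with the Xist term and 0.15 with the term without Nov. The cause of these changes was not tested.

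Leaving out each library gave 1 to 7 called genes in Tau relative to WT mice, with 0 to 1 adjusted p-values under 0.05 and medians from -0.93 to -0.13. It gave 1 to 3 called genes and medians from 0.036 to 0.51 after UNC0642, and 1 to 6 called genes and medians from -0.49 to 0.20 in UNC0642-treated Tau relative to WT mice.

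Single genes changed sign as follows. In Tau relative to WT mice, the summed fibroblast term gave 0.052 for Aldh1a2 and 0.0093 for Mgp, and the term without Nov 0.65 for Slc22a6, 0.73 for Slc47a1, 0.35 for Aldh1a2, 0.17 for Mgp, 0.39 for Ptgds and 0.038 for Fn1. Leaving out libraries moved Slc22a6 between -0.98 and 0.089, Aldh1a2 between -0.47 and 0.32, Mgp between -0.49 and 0.50 and Ptgds between -0.61 and 0.061, with Mgp at 0.19 without Tau replicate 1. After UNC0642, the summed term gave -0.042 for Slc22a6, the term without Nov -0.33 for Slc22a6, -0.028 for Slc13a3, -0.026 for Slc47a1 and -0.089 for Ptgds, and the Xist term 0.70 for Aldh1a2 and 0.78 for Mgp. Leaving out libraries moved Slc22a6 between -0.25 and 0.58, Slc13a3 between -0.12 and 0.37, Aldh1a2 between -0.30 and 0.093, Mgp between -0.47 and 0.075 and Ptgds between -0.0033 and 0.43, with Slc22a6 at -0.0035 without UNC0642 replicate 1 and Slc13a3 at -0.048 without UNC0642 replicate 2. In UNC0642-treated Tau relative to WT mice, the Xist term gave 0.020 for Slc6a13, 0.17 for Slc22a6 and 0.47 for Slc47a1. It gave 0.24 for Aldh1a2, 0.30 for Mgp and 0.26 for Ptgds. The fit without WT replicate 2 gave the same values, so these fits are not separate results. Each compares the UNC0642 libraries with the library labelled WT replicate 1, which shares their low Xist. These were the highest values with 1 library left out, down to -0.42, -0.81, -0.86, -0.55, -0.69 and -0.42. The summed term gave 0.13 for Slc47a1 and 0.058 for Ptgds there, and the term without Nov 0.22 for Slc6a13, 0.31 for Slc22a6, 0.71 for Slc47a1, 0.065 for Aldh1a2, 0.30 for Ptgds and 0.071 for Postn.

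The replicate block changed no call of the 10 genes: 4, 3 and 2 were called, with medians of -0.53, 0.15 and -0.27. Same-numbered libraries did not deviate together, with correlations of -0.03, -0.02 and 0 between the replicate differences of the groups.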
